A study of Mus musculus with 4 samples.

Results

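The urokinase and plasminogen activation genes were followed in mouse mammary basal cell colonies grown with or without Wnt3A. The members were 7 named genes: Plau, Plaur, Plat, Serpine2, Serpinb2, Serpinb5 and Anxa2. Every probe set whose only gene symbol in the platform annotation was one of these names was taken, which gave 13 probe sets for 6 of the 7 genes, of 45037 probe sets in all. Serpine2, which encodes the secreted serpin protease nexin 1, was not analysed here because no probe set carried its name alone.

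Plasminogen is a circulating zymogen that cells convert to plasmin at their surface. Urokinase, the product of Plau, makes this cut while bound to its receptor, the product of Plaur, and tissue plasminogen activator, the product of Plat, makes the same cut on fibrin and on annexin A2. Serpins of several kinds block both activators, and in the mammary gland the system is known for its part in matrix turnover during lactation and involution.

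Mammary glands of virgin female CD1 mice, aged 8 to 12 weeks, gave the cells, which were sorted as Lin-, CD24+, CD29hi, a basal gate enriched for stem cells. All 4 samples were grown as colonies in growth factor reduced Matrigel, a basement membrane gel, with 50 ng/ml EGF, and all were harvested as second colonies, 6 to 7 days after replating, at passage 2. The Wnt3A group (n = 2) had 200 ng/ml purified Wnt3A, a secreted Wnt ligand, throughout culture, and the control group (n = 2) had the carrier, CHAPS in PBS, which the labels call both vehicle and vesicle. Whether a group's pair of arrays stands for separate cultures or mice is not in the labels, and p-values therefore measure the spread among these 4 samples, possibly technical, and no more.

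RNA was hybridised to Affymetrix mouse expression arrays, 1 per sample. The deposited values are on the log2 scale and each probe set was centred on its median over the 4 arrays, so every value below is a log2 distance from that median and levels of different genes cannot be compared. A coarse level band could be read from the precision of the stored numbers: 9 of the 13 member probe sets lay at log2 8 or above, 3 between 4 and 8, and 1 below 4. A probe set with arrays on both sides of a limit can be placed in the lower band. The number of arrays limits the precision. No probe set passed the test for Wnt3A against control (limma, adjusted p under 0.05: 0 of 45037, or 0.0%), and 2801, or 6.22%, had an unadjusted p under 0.05. Values of single genes are therefore measured differences, not calls. An exact permutation test of 2 against 2 arrays cannot give a two-sided p below 0.33. Individual arrays stood apart for some probe sets: Control 1 lay at least 1 log2 unit below all others for 178 probe sets, Control 2 for 20, Wnt3A 1 for 179 and Wnt3A 2 for 59. Upwards by the same step, the counts were 86 for Control 1, 153 for Control 2, 61 for Wnt3A 1 and 267 for Wnt3A 2.

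Among the members, Plau, Plaur and Serpinb2 had the large differences, all higher with Wnt3A, while Plat, Serpinb5 and Anxa2 differed by less than 0.4 log2 units in each of their 9 probe sets. For 7 of the 13 probe sets both Wnt3A arrays lay above both controls, which held for 17.4% of all probe sets, and for 1 both lay below, which held for 16.3%. The separated probe sets with a difference of at least 1 log2 unit were the pair for Plau and those for Plaur and Serpinb2, and 0.755% of all probe sets met that limit upwards and 0.617% downwards. The median difference over the 13 was 0.20, against 0.01 over all probe sets, and it was 0.07 without Control 1. Probe sets of one gene measure the same RNA and are not independent of each other.

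**Figure D1:**
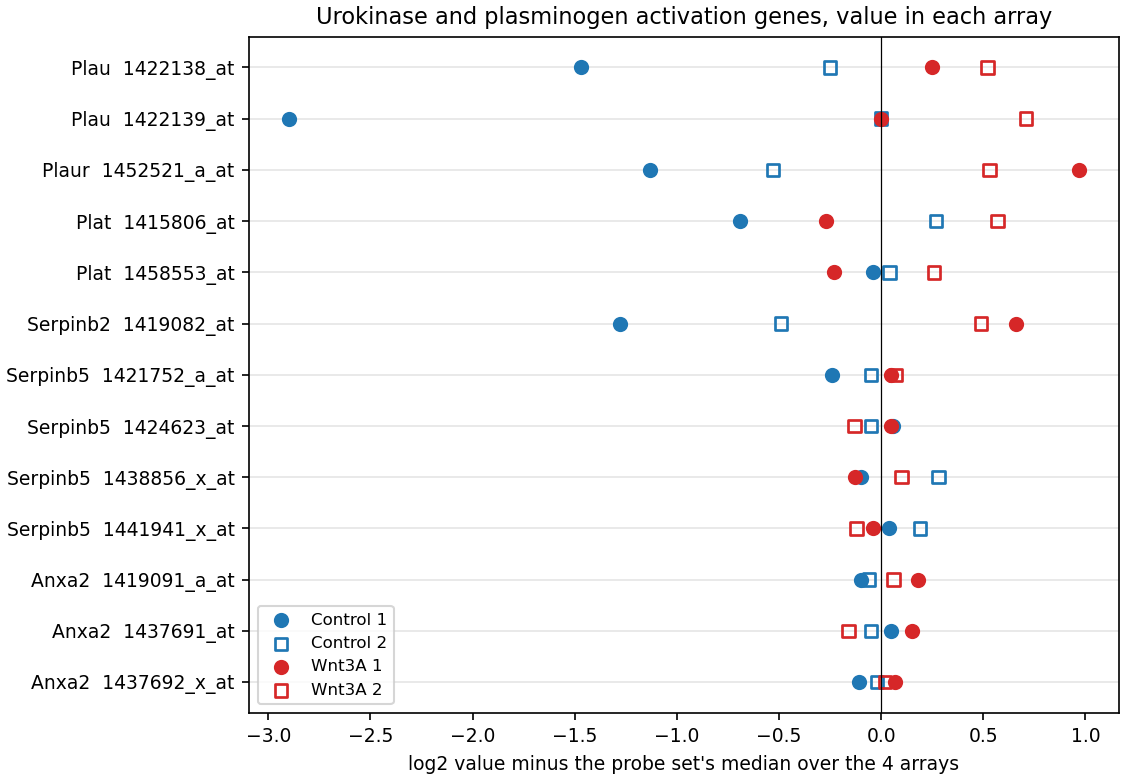
Each row is a member probe set and each point an array, on the scale of log2 distance from the probe set's median over the 4 arrays; filled circles are arrays numbered 1, open squares arrays numbered 2, blue is control and red Wnt3A. Plaur and Serpinb2 show both red points right of both blue ones by about 1 unit, Plau shows Control 1 far to the left, at -2.90 in its lower row, and the Serpinb5 and Anxa2 points lie close together.

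Plau encodes urokinase, the secreted serine protease that cuts plasminogen. Its 2 probe sets differed by 1.24 ± 0.44 and 1.81 ± 1.02 log2 units (SE, n = 2 and 2), or 2.37-fold and 3.49-fold, and neither passed the test (limma, adjusted p = 0.79 and 0.90). Probe set 1422138_at was at -1.47 in Control 1 and -0.25 in Control 2, against 0.25 in Wnt3A 1 and 0.52 in Wnt3A 2. Probe set 1422139_at was at -2.90 in Control 1 and 0.71 in Wnt3A 2, with Control 2 and Wnt3A 1 both at 0.00 to 2 decimals. In that second probe set the groups were apart by 0.00468 log2 units only, and they overlapped once each array was centred on its own median or the arrays were quantile normalised. Both probe sets placed Control 1 lowest by a wide step and Wnt3A 2 highest. Without Control 1 the differences were 0.63 and 0.36, and without Control 2 they were 1.86 and 3.25, so the size of the urokinase difference rested on 1 control array.

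Control 1 was also low for part of the matrix and contact response genes, a list of 9 that holds fibronectin, tenascin C and targets of YAP. In 6 of the 9, Control 1 lay at -1 or below, as with Fn1 at -1.98 and Ccn2 at -3.37, whereas Ccn1 was at -0.23 and the collagen genes Col4a1 and Col4a2 at -0.46 and -0.22. Of 12 basal markers, 2 were as low in Control 1, the contractile genes Cnn1 at -2.75 and Myh11 at -1.67. Over the matrix and contact response list, the median value was -1.98 for Control 1 and -0.06 for Control 2, against 0.15 in Wnt3A 1 and 0.27 in Wnt3A 2, and 5 of the 9 were separated higher with Wnt3A and 0 lower, where the shares over all genes were 17.0% and 17.5%. This list was chosen with earlier results of these data known, so its count is a description and no independent support. The list's median difference was 1.37, and 0.36 without Control 1 against 2.39 without Control 2. Its part in the Plau difference was not tested. In whole colonies, fewer cells that make a transcript and less transcript per cell cannot be told apart.

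Plaur encodes the urokinase receptor, a membrane-anchored protein that holds the enzyme at the cell surface. Its single probe set, 1452521_a_at, was at -1.13 in Control 1 and -0.53 in Control 2, against 0.97 in Wnt3A 1 and 0.53 in Wnt3A 2. The groups did not overlap, and the lower Wnt3A array lay 1.05 log2 units above the higher control. The difference was 1.58 ± 0.28 log2 units, or 2.98-fold, with an unadjusted p of 0.0040 that 273 of the 45037 probe sets matched or beat, and it did not pass after adjustment (limma, adjusted p = 0.65). With each array left out in turn it stayed between 1.28 and 1.88. Unlike Plau, the receptor was highest in Wnt3A 1 and its 2 controls lay 0.60 apart.

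Serpinb2 encodes plasminogen activator inhibitor type 2, a serpin that blocks urokinase and is abundant in keratinocytes. Its probe set, 1419082_at, was at -1.28 in Control 1 and -0.49 in Control 2, against 0.66 in Wnt3A 1 and 0.49 in Wnt3A 2. The order of the 4 arrays was that of Plaur, and the groups were 0.982 apart. The difference was 1.46 ± 0.30 log2 units, or 2.75-fold, and did not pass the test (limma, adjusted p = 0.72). It lay between 1.06 and 1.85 with each array left out in turn, the lower value being that without Control 1.

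Because Plaur and Serpinb2 lay in the same order across the arrays, and Serpinb5 and Anxa2 differed little, the 250 bases before a start site of each are shown for comparison. They were copied from RefSeq (GRCm38.p6, plus strand, 5′ to 3′), and capitals mark the AP-1 motif TGACTCA, read as TGAGTCA on the other strand. Of the 7 members, 5 matched the sequence table by symbol, Plau and Plat not among them. The Plaur and Serpinb2 start sites lie inside the genes' annotated spans, which begin further upstream, so these windows may also lie within longer transcripts.
Plaur, chr7:24462233-24462482: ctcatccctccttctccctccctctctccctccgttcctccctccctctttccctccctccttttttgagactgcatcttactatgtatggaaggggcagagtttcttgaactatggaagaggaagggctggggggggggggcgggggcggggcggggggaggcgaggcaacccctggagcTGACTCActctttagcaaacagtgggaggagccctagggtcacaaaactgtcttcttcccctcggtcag
Anxa2, chr9:69453433-69453682: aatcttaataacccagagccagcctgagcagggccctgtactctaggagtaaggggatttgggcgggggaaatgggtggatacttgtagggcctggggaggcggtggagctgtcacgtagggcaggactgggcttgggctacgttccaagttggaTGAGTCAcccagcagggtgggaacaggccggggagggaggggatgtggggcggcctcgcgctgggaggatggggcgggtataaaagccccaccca
Serpinb2, chr1:107511173-107511422: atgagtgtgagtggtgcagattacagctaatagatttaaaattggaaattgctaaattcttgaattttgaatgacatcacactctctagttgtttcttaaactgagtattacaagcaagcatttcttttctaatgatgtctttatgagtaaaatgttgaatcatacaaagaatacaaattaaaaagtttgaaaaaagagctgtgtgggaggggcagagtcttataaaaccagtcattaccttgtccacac
Serpinb5, chr1:106860925-106861174: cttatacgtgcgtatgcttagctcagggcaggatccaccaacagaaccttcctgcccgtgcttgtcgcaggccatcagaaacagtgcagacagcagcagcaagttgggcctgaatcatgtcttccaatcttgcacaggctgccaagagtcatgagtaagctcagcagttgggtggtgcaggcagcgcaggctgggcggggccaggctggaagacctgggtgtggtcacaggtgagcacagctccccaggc

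The AP-1 letters occurred once in the Plaur window, starting 69 bases before the start site, and once in that of Anxa2, starting 95 bases before it. They were not among the letters of the Serpinb2 or Serpinb5 windows, and 4.46% of 32851 windows of the same length held them. The core motif of TCF and LEF factors, CTTTGA or TCAAAG, was in none of the 4 windows and in 13.8% of all windows. The GC box letters GGGCGG, or CCGCCC, were in the Plaur, Anxa2 and Serpinb5 windows and in 32.7% of all, and TATAAA, or TTTATA, in the Anxa2 and Serpinb2 windows and in 12.4% of all. None of these motifs contains another. A match is a description of the letters and says nothing of binding. AP-1 letters were present for the receptor, which differed by 1.58, and for annexin A2, which differed by 0.20 or less, and not in the window of Serpinb2, which differed by 1.46. The window of a further Serpinb2 start site, not printed, also lacked them. Any part of AP-1 in these differences was not tested.

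Plat encodes tissue plasminogen activator, the second enzyme that cuts plasminogen. Probe set 1415806_at was at -0.69 in Control 1 and 0.27 in Control 2, against -0.27 in Wnt3A 1 and 0.57 in Wnt3A 2. The groups overlapped: both arrays numbered 2 lay above both arrays numbered 1. The difference was 0.36 ± 0.45 log2 units (limma, adjusted p = 0.99), and it was -0.11 without Control 1 and 0.84 without Control 2. Probe set 1458553_at was at -0.04 and 0.04 in the controls, against -0.23 and 0.26 with Wnt3A, a difference of 0.01 ± 0.20. The step between arrays of one group, 0.95 log2 units in the controls of the first probe set and 0.83 in its Wnt3A arrays, was larger than the step between groups.

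Serpinb5 encodes maspin, a clade B serpin of basal mammary cells and keratinocytes that is not known to inhibit proteases. Its 4 probe sets differed by 0.20 ± 0.13, -0.04 ± 0.14, -0.10 ± 0.19 and -0.20 ± 0.13 log2 units, and they did not share a direction. Probe set 1421752_a_at was at -0.24 and -0.05 in the controls, against 0.05 and 0.07 with Wnt3A, separated higher by 0.0902. Probe set 1441941_x_at was at 0.04 and 0.19 in the controls, against -0.04 and -0.12 with Wnt3A, separated lower by 0.0853. The other two probe sets had overlapping groups. The mean of the 4 probe sets differed by -0.04 ± 0.12 (limma on genes, adjusted p = 1.0). The suffix x in 2 of the names marks probes that may also bind other transcripts, by the maker's naming.

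Anxa2 encodes annexin A2, a membrane-binding protein that, with its partner S100a10, holds plasminogen and tissue plasminogen activator at the surface. Probe set 1419091_a_at was at -0.10 and -0.06 in the controls, against 0.18 and 0.06 with Wnt3A, a difference of 0.20 ± 0.12 log2 units or 1.15-fold (limma, adjusted p = 0.92). Probe set 1437692_x_at differed by 0.11 ± 0.12, and in both of these the groups were apart, by 0.124 and 0.0473. The third, 1437691_at, lay in the lowest level band, had overlapping groups and differed by -0.01 ± 0.16. The partner gene S100a10 was at -0.37 and 0.15 in the controls, against -0.08 and 0.41 with Wnt3A. Its groups overlapped too, with a difference of 0.28 ± 0.26.

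**Figure D2:**
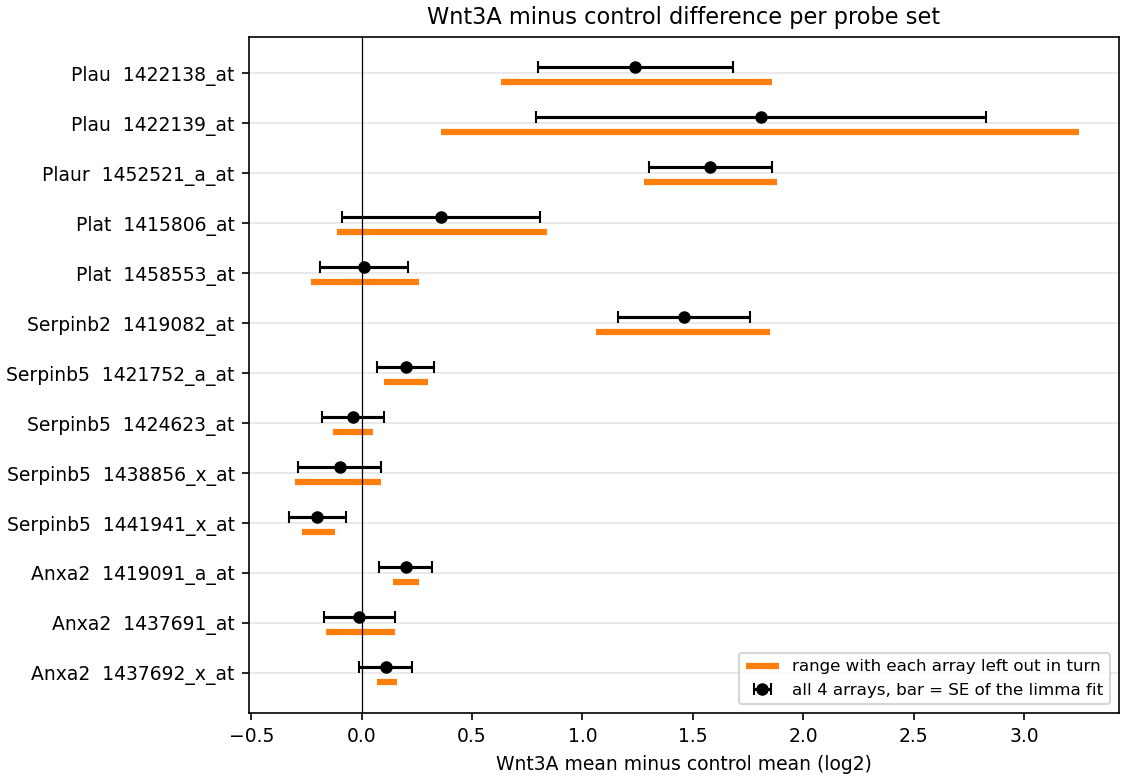
Black points give the Wnt3A mean minus the control mean of each member probe set in log2 units, with the SE of the limma fit, and orange bars the range of that difference when each of the 4 arrays was left out in turn. The orange bar of Plau 1422139_at runs from 0.36 to 3.25, those of Plaur and Serpinb2 stay above 1, and those of both Plat probe sets cross 0.

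The 2 control arrays were also set against each other, as a measure of how far the samples without Wnt3A differed in these genes. Control 1 lay below Control 2 for 11 of the 13 member probe sets, and for 44.2% of all probe sets. The gap reached 1 log2 unit for the Plau pair alone, at -1.22 and -2.89, where 3.17% of all probe sets were that far apart in either direction and 2.18% had Control 1 that far below. In all, 42 of 45037 probe sets, the second Plau probe set included, had a control gap as low as -2.89. Plat 1415806_at followed at -0.95, Serpinb2 at -0.79 and Plaur at -0.60, and the Serpinb5 and Anxa2 gaps lay between -0.39 and 0.11. With 1 array on each side this comparison has no replicate check.

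For Plau 1422139_at the gap between the controls exceeded the Wnt3A difference of 1.81, and for 1422138_at it was close to the difference of 1.24. For Plaur and Serpinb2 the Wnt3A differences of 1.58 and 1.46 exceeded both the control gaps and the gaps between the Wnt3A arrays, which were 0.45 and 0.16. Control 1 was the lowest of the 4 arrays for 8 of the 13 member probe sets, and for 22.2% of all probe sets.

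**Figure D3:**
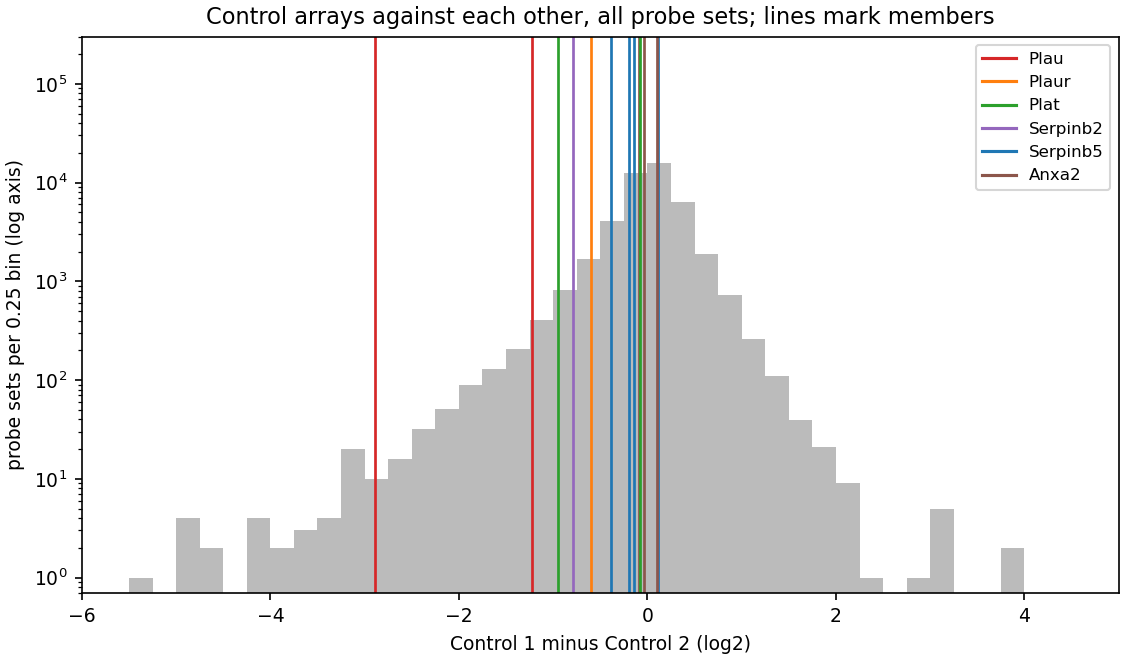
The histogram counts all 45037 probe sets by Control 1 minus Control 2 in log2 units, on a logarithmic count axis, and coloured lines mark the 13 member probe sets. The Plau lines at -2.89 and -1.22 lie in the left tail, those of Plat, Serpinb2 and Plaur between -0.95 and -0.60, and the rest near 0.

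Arrays carrying the same number in their titles gave the comparison in a second form, without shared arrays. Wnt3A 1 exceeded Control 1 by 1.72 and 2.90 log2 units for Plau, 2.10 for Plaur and 1.94 for Serpinb2. Wnt3A 2 exceeded Control 2 by 0.77 and 0.71 for Plau, 1.05 for Plaur and 0.98 for Serpinb2. All 4 gaps were larger between the arrays numbered 1. That all 4 were higher with Wnt3A within either number was fixed by their separated groups and is no further support. For Plat 1415806_at the values were 0.42 and 0.30. Both differences were positive for 8 of the 13 probe sets, and for 30.4% of all probe sets. The 8 include the 7 separated higher, where this outcome was likewise fixed. The labels do not say that equal numbers share animals or days.

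**Figure D4:**
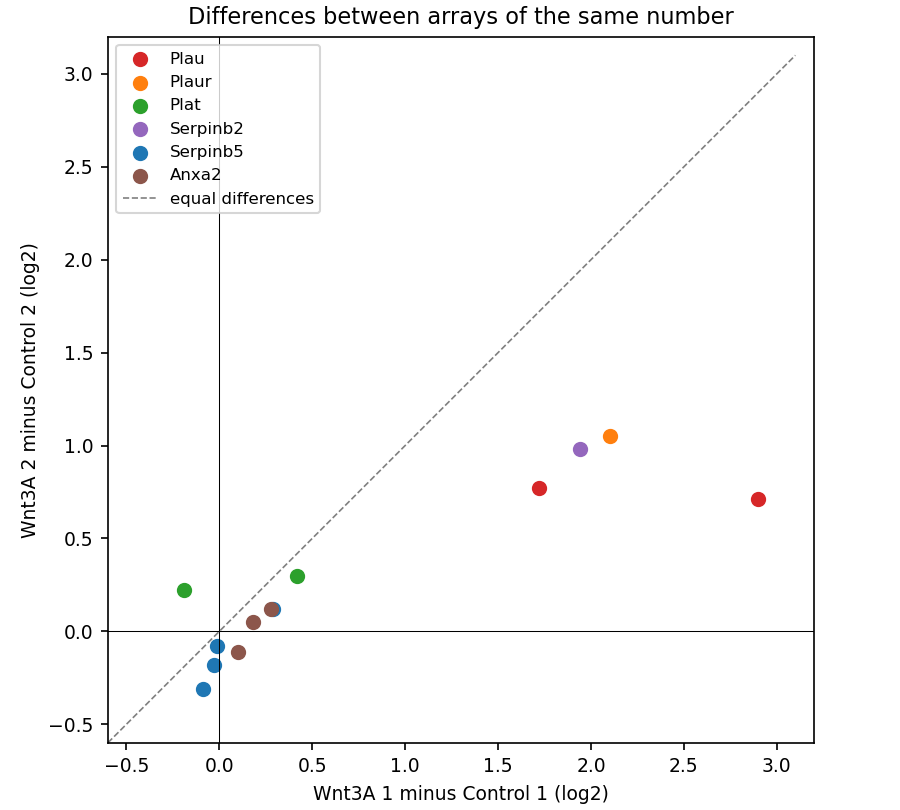
Each point is a member probe set, with Wnt3A 1 minus Control 1 on the horizontal axis and Wnt3A 2 minus Control 2 on the vertical axis, both in log2 units, and a dashed line where the values would be equal. The 4 Plau, Plaur and Serpinb2 points lie at 1.72 or more on the horizontal axis and between 0.71 and 1.05 on the vertical axis, below the line, and all others lie within 0.5 of 0 on both.

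Other genes of the pathway and of related families were counted from 8 lists with 115 measured genes, each gene being the mean of its probe sets. Of the 115, 36 had both Wnt3A arrays above both controls and 14 had both below, where the shares over all 18193 genes were 17.0% and 17.5%. None of the 115 passed the test over all genes (limma, adjusted p under 0.05), as was the case for all 18193 genes, or 0.0%. The lists were chosen with earlier results of these data known, so their counts are a description and no independent support. Most genes named below were taken from those with the largest separated differences in their list, so their directions are not independent support for the lists. Plg, Vtn, Lrp1 and the Fos and Jun genes other than Fosl1 were named for their role.

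In the list of plasminogen and genes related to its system, 3 of 14 were separated higher and 1 lower. The list's median was 0.09 against 0.00 over all genes, and -0.04 without Wnt3A 1. Plg, the plasminogen gene, differed by 0.04 ± 0.19 and Vtn, which encodes the matrix anchor vitronectin, by 0.03 ± 0.12. Serpinb8, an inhibitor of furin-like proteases, differed by 0.57 ± 0.11, with -0.37 and -0.31 in the controls, against 0.21 and 0.25 with Wnt3A. Thbd, which encodes the thrombin receptor thrombomodulin, differed by 0.83 ± 0.49. It stood at 1.50 in Wnt3A 2, and the difference was 0.11 without that array and 1.56 without Wnt3A 1.

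Genes for partners of the urokinase receptor and for its uptake had 7 of 17 separated higher and 3 lower, with a median of 0.20, or 0.10 without Wnt3A 1 and 0.12 without Control 2. Itgb6, an epithelial integrin chain, was at -0.73 and -0.26 in the controls, against 0.51 and 0.66 with Wnt3A, a difference of 1.08 ± 0.20. Itga3, the laminin-binding integrin chain that pairs with Itgb1, differed by 0.82 ± 0.26, and by 0.47 without Wnt3A 1. The uptake receptor genes did not share a direction: Lrp8 differed by 0.68 ± 0.20, or 0.45 without Control 2, and Vldlr, whose product clears urokinase bound to its inhibitors, by -0.86 ± 0.34, or -0.38 without Control 1 and -1.34 without Control 2. Lrp1, the broad clearance receptor, differed by 0.64 ± 0.22, or 0.35 without Wnt3A 2.

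Among substrates and proteases downstream of plasmin, 7 of 20 genes were separated higher and 1 lower, with a median of 0.16. That median was 0.33 without Control 2 and 0.40 without Wnt3A 2, but 0.11 without Control 1 and 0.11 without Wnt3A 1. Mmp9, a gelatinase whose zymogen plasmin can help activate, was at -1.03 and -0.10 in the controls, against 2.08 and 0.10 with Wnt3A. Its difference of 1.65 ± 0.74 was 0.66 without Wnt3A 1 and 2.64 without Wnt3A 2. That of Mmp10, which encodes stromelysin 2, was 0.98 ± 0.54, or 0.19 and 1.77 without those arrays in turn. Timp1, a metalloproteinase inhibitor, differed by 0.87 ± 0.29, and by 0.53 without Wnt3A 1. The fibrinogen chain genes Fgb and Fgg, picked out after their values were seen, stood at 2.79 and 3.54 in Control 2. In the other arrays they lay between -0.72 and 0.36. Fga, the remaining chain gene, did not share this, at 0.31 in Control 1 and -0.08 in Control 2.

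Pericellular serine proteases and their Kunitz inhibitors had 6 of 15 separated higher and 2 lower, with a median of 0.31, or 0.11 without Wnt3A 1. Prss22, a tryptase-like protease reported to activate urokinase, was at -1.11 and -0.81 in the controls, against 0.81 and 0.98 with Wnt3A. Its difference of 1.86 ± 0.16 lay between 1.71 and 2.01 with each array left out and did not pass the test (limma on genes, adjusted p = 0.29). Tmprss4, a membrane protease, differed by 0.98 ± 0.50, by 0.29 without Wnt3A 2 and by 1.67 without Wnt3A 1.

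Genes that share the fold of the urokinase receptor, the Ly6 and uPAR domain family, had 6 of 15 separated higher and 2 lower. Their median was 0.17, or 0.12 without Control 1 and 0.26 without Control 2. Lypd3, a structural relative of the receptor made by epithelia, was at -0.60 and -0.44 in the controls, against 0.44 and 0.80 with Wnt3A, a difference of 1.14 ± 0.17. Lypd6b differed by 1.26 ± 0.20. Other clade B serpins had 2 of 7 separated higher and 1 lower, with a median of 0.33 that ran from 0.09 without Wnt3A 2 to 0.95 without Wnt3A 1. The higher ones, Serpinb7 and Serpinb3a, were highest in Wnt3A 2, and the single probe set of each lay in the lowest level band. Serpinb7 differed by 0.93 ± 0.40, by 0.36 without Wnt3A 2 and by 1.49 without Wnt3A 1, and Serpinb3a by 0.69 ± 0.33, 0.22 and 1.16 in the same order. Other annexins and S100 partners had 2 of 10 separated higher and 0 lower. Transcription factors known for the urokinase promoter and the Wnt pathway had 3 of 18 separated higher and 4 lower, with a median of -0.02 that lay between -0.10 and 0.05 with an array left out. Fosl1, an AP-1 subunit, differed by 0.77 ± 0.14, and Tcf7l2, a TCF factor, by -1.02 ± 0.24. The other listed Fos and Jun genes did not all share the direction of Fosl1. Jun differed by -0.40 ± 0.19 and was separated lower. Fosl2 differed by 0.45 ± 0.28, Fos by -0.61 ± 0.34, Jund by -0.20 ± 0.15 and Junb by -0.03 ± 0.39, all with overlapping groups.

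**Figure D5:**
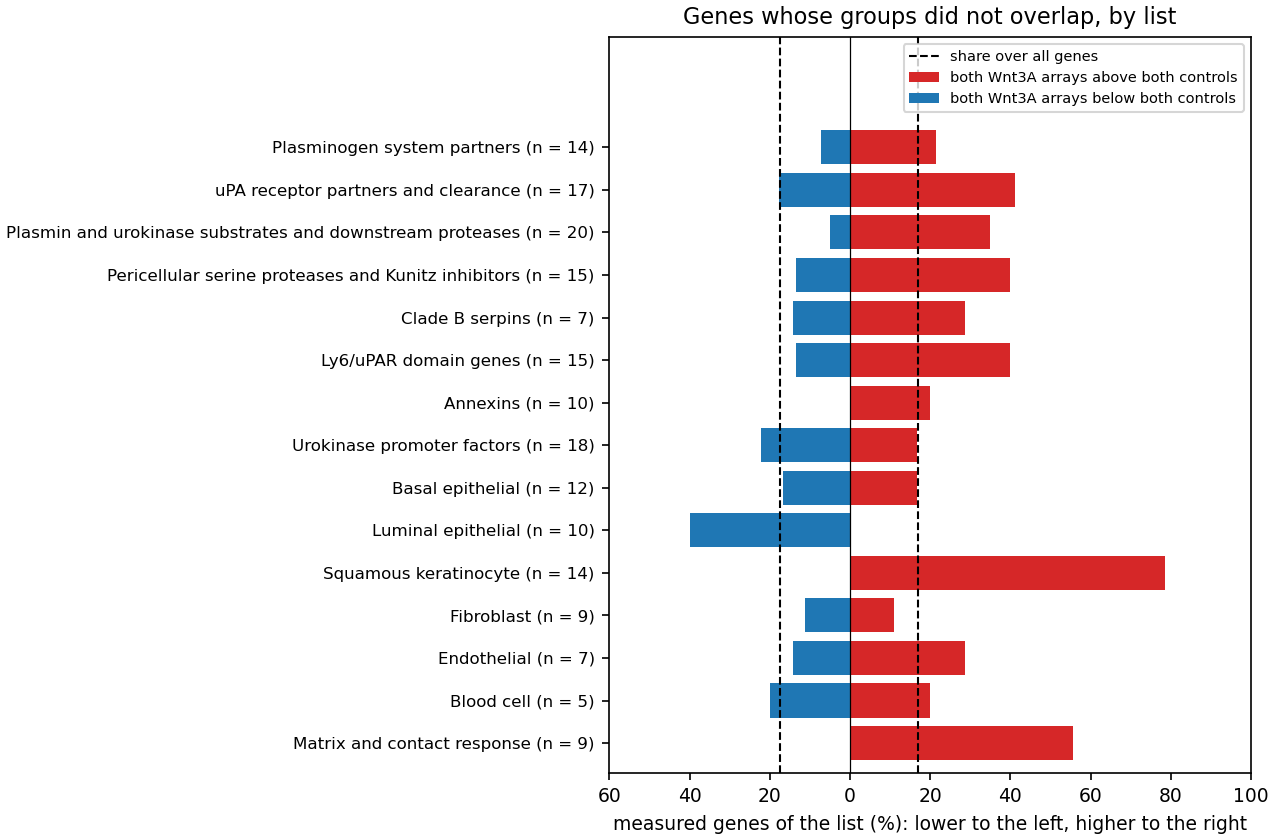
Bars give the percentage of each list's measured genes whose 2 Wnt3A arrays lay above (red, right) or below (blue, left) both controls, n being the genes measured; dashed lines mark the shares over all genes, 17.0% and 17.5%. The squamous keratinocyte list stands at 78.6% higher, and the receptor partner, pericellular protease and Ly6 lists near 40% higher with 17.6% or less lower.

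Cell type markers were set beside these counts. Of 12 basal markers, 10 had a probe set at log2 8 or above, as had 7 of 10 luminal and 7 of 14 squamous keratinocyte markers. The counts were 1 of 9 fibroblast, 1 of 7 endothelial and 1 of 5 blood cell markers, with 49.4% over all genes. Basal markers were separated higher for 2 and lower for 2 of 12, and luminal markers higher for 0 and lower for 4 of 10. The shares over all genes were 17.0% higher and 17.5% lower, and the marker lists were likewise chosen with earlier results known. Squamous keratinocyte genes, among which Serpinb2 and Serpinb5 are often counted, were separated higher for 11 of 14, with array medians of -0.56 and -0.53 in the controls, 0.40 in Wnt3A 1 and 1.38 in Wnt3A 2. That list's median difference was 1.65, or 0.96 without Wnt3A 2 and 2.23 without Wnt3A 1. The median of that list was highest in Wnt3A 2, as were both Plau probe sets. Plaur was at 0.97 in Wnt3A 1 and 0.53 in Wnt3A 2, and Serpinb2 at 0.66 and 0.49. The part of the squamous list in the differences of Plau, Plaur and Serpinb2 was not tested.

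The genes with the pattern nearest to a member were found by Euclidean distance over the 4 arrays, where the median distance of all named probe sets was 3.03 for Plau 1422139_at and 1.70 for Plaur. The nearest to Plau were Pappa, a secreted metalloproteinase (0.26), Actg2, a smooth muscle actin (0.34), Fn1, fibronectin (0.38), Samd4 (0.50) and Col8a1, a short-chain collagen (0.52). All 5 had Control 1 lowest, between -3.19 and -2.50, in the matching probe set. Other probe sets of 4 of these genes were less far apart, with Control 1 as high as 0.05 for Samd4. The nearest to Plaur were C130073F10Rik (0.14), Clu, which encodes the secreted chaperone clusterin (0.23), the noncoding RNA Malat1 (0.27), Ces2f, a carboxylesterase (0.32), and Nrp2, a semaphorin receptor (0.34). Clu had differences of 1.15 to 1.49 over its 4 probe sets and Malat1 of 0.70 to 1.46 over its 7. With 4 arrays, such likeness describes the order and size of 4 values only.

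Procr and Axin2 served as reference points for the Wnt3A samples. Procr, the protein C receptor gene, differed by 2.75 ± 0.71. It was at -1.87 in Control 1 and -0.66 in Control 2, against 0.66 in Wnt3A 1 and 2.31 in Wnt3A 2. Axin2, a feedback target of canonical Wnt signalling, differed by 1.76 ± 0.32 in one probe set. That probe set was at -0.58 and -1.18 in the controls, against 1.20 and 0.58 with Wnt3A. The other Axin2 probe set differed by -0.12 ± 0.13 and lay in the lowest level band. The Plaur difference of 1.58 was thus close in size to that of the first Axin2 probe set, and neither passed the test over all probe sets (limma, adjusted p = 0.65 for both).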

How the data were processed

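The table deposited by the authors holds log2 values. RMA, without a version, is the tool that the submitters' processing notes name. No source used here describes the centring: every row's median over the 4 samples was 0 to within 5.0e-07. Column medians lay between -0.016 and 0.020. After 64 array controls were removed, 45037 probe sets remained, of which 34945 had a single symbol in the platform annotation, 932 several and 9160 none. RefSeq identifiers (GRCm38.p6) changed 0 symbols. Level bands were read from the spacing of the stored single-precision numbers (33.4%, 46.9% and 19.8% of probe sets from the highest band down). In a check on simulated levels inside each band, errors only placed probe sets too high. Probe sets whose arrays span a band limit were not simulated and can be placed too low.

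The 2 groups were fitted in R 4.3.3 by lmFit and eBayes of limma 3.58.1 with a two-sided test, Benjamini-Hochberg adjustment over all probe sets and no covariate (2 residual and 2.3 prior degrees of freedom); SEs are those of this fit. The script was tested on data simulated with independent arrays and known changes. It called 0% of changes of 1 log2 unit, 52% of 2, 74% of 3 and 92% of 4, with 7 false calls. Lists used gene means. Members and lists were chosen with earlier results of these data known. Named beside the members were up to 4 genes a list with the largest separated difference, and the 5 nearest in pattern to Plau and to Plaur. Lrp1, Plg, Vtn, S100a10 and the Fos and Jun genes other than Fosl1 were named for their role, with values seen. Alternatives were other filters, scalings, variance models, gene means, the replicate block and each array left out. Figures used matplotlib 3.10.9 under Python 3.11.15.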

Additional observations from a re-analysis of the deposited data

How the results depend on the processing

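The count of 0 calls held under every alternative run, a threshold of 0.10 included: single-symbol probe sets, both level filters, gene means, quantile normalization, median centring, robust eBayes, the replicate block and each array left out. Of 13 member probe sets, 7 were separated higher and 1 lower; the counts were 4 and 1 among probe sets at log2 8 or above, 4 and 0 as means of the 6 genes, where fewer units were counted, and 2 to 3 were lower with an array left out, since a lone array separates more easily. The member median of 0.20 was 0.82 over gene means and 0.07 to 0.22 with an array left out. The list counts of 36 higher and 14 lower were 45 to 59 and 24 to 35 with an array left out. Over all genes the shares rose too. They were 27.7% to 39.1% higher and 28.8% to 38.6% lower, against 17.0% and 17.5% with all 4 arrays. Plau 1422139_at differed by 1.40 after quantile normalization. Serpinb5 turned from 0.20 in its first probe set to -0.04 as a gene mean, which averages 4 probe sets of both directions. With an array left out, the differences ran from -0.11 to 0.84 for Plat 1415806_at, -0.23 to 0.26 for 1458553_at, -0.13 to 0.05 and -0.30 to 0.09 for Serpinb5 1424623_at and 1438856_x_at, and -0.16 to 0.15 for Anxa2 1437691_at. With the replicate number as a block, 0 probe sets were called and 4882 had an unadjusted p under 0.05 (limma), against 2801 without it. Deviations of same-numbered arrays had r = 0.53, but the labels do not pair the arrays. An intensity trend could not be fitted, since centred values hold no levels.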
